A study of Mus musculus with 2 samples.

Results

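The regions described here are 1993 intergenic stretches of open chromatin near genes in mouse hematopoietic stem cells, the self-renewing cells of bone marrow from which every blood lineage descends. They were the replicate 1 intervals that overlapped a replicate 2 interval by at least 1 bp, with a summit outside every protein-coding gene and over 1 kb up to 20 kb from the nearest start of a protein-coding transcript (TSS). They made up 10.1% of the 19727 intervals shared by the replicates (95% Wilson interval 9.69% to 10.5%, counting error only). ATAC-seq, in which a transposase cuts and tags accessible DNA, had been run on 50000 hematopoietic stem cells per library from male C57BL/6J mice aged 5 to 6 weeks, with 2 biological replicates and no other group. Per the labels, the replicates were separate biosamples with 1 donor identifier in common, and it is not stated whether different animals were used. Sequencing instruments, a pair of them, are named for replicate 1 only, and the labels do not say whether the replicates were sequenced alike. The strict peak list of each replicate, thresholded on the irreproducible discovery rate (a measure of how well peak ranks repeat), held 25141 intervals in replicate 1 and 24495 in replicate 2. Of these, 2795 in replicate 1 and 2696 in replicate 2 lay in this part of the genome. With 1 group of 2 libraries no comparison of conditions was possible, and read depth is unknown, so a region outside the lists was only not called.

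Sequence at this distance from genes can hold enhancers, which carry binding sites for transcription factors and act on promoters along the same chromosome. It can also hold insulator sites bound by CTCF, and starts of long noncoding RNAs. In blood stem cells, RUNX factors, ETS factors such as Fli1 and PU.1, GATA factors and the E-box factors Tal1 and Lyl1 are known to bind many such elements together, and AP-1 (Fos and Jun dimers) binds elements that respond to stimulation.

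The following windows, which reach 50 bp to either side of the replicate 1 summit, are the strongest members that hold each of the motif families with the highest ratio of member share to background share, among families found in at least 50 member windows. They are shown so that the letters counted can be seen in place; each of these families was in a minority of members. Sequences are the forward strand of GRCm38 (mm10) from RefSeq, each is named by its nearest protein-coding gene, and capitals mark the motif given after the position, read on either strand. In the Trpa1 window the PU.1 and AP-1 letters share 1 base.
Trpa1, chr1:14925009-14925109, PU.1 and AP-1: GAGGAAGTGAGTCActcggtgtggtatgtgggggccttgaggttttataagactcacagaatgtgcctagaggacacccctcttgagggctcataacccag
Sfpq, chr4:127015736-127015836, CTCF: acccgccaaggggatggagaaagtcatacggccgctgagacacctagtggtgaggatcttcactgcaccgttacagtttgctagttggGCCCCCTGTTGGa
Herpud2, chr9:25167581-25167681, longer RUNX: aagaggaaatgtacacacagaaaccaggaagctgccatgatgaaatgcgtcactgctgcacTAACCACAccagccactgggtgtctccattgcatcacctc
Abcb11, chr2:69355551-69355651, ETS core: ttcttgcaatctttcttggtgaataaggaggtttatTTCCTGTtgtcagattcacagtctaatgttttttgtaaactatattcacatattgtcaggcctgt
H60c, chr10:3281120-3281220, RUNX: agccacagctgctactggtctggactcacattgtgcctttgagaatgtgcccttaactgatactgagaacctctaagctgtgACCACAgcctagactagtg
Cldn9, chr17:23700272-23700372, NF-Y: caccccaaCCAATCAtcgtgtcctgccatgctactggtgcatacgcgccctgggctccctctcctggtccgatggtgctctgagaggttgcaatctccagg
Slfn14, chr11:83291621-83291721, E-box CACGTG: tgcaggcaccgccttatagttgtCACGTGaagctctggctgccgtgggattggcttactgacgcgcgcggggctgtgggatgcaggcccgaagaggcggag
Zfp677, chr17:21370488-21370588, SP: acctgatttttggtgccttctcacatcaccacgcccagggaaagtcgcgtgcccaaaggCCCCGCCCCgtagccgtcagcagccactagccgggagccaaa
Hic2, chr16:17222349-17222449, MEIS: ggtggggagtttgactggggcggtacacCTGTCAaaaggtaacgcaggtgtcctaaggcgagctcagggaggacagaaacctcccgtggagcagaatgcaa

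The windows of members nearest a gene listed here as a transcription factor of blood stem cells are printed next. Capitals mark PU.1, ETS core, RUNX, GATA, Tal1 E-box or AP-1 letters where any of the 6 was present. The Ikzf2 window and the first Lmo2 window held none. No sequence is printed for the member near Egr1.
Ikzf2, chr1:69689142-69689242, none: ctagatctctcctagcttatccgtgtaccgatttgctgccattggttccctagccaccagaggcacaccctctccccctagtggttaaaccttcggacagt
Lmo2, chr2:103945072-103945172, none: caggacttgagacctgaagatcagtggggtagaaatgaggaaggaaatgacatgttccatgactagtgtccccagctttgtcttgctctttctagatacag
Lmo2, chr2:103945940-103946040, RUNX and GATA: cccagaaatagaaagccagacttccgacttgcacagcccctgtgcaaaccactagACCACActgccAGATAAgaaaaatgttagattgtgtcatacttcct
Fli1, chr9:32556501-32556601, ETS core: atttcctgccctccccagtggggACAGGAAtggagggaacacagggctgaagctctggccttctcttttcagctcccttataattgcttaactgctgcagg
Fli1, chr9:32562638-32562738, PU.1: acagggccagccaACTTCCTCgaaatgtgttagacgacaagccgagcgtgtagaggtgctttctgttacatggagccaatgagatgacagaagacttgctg
Ikzf1, chr11:11667697-11667797, PU.1: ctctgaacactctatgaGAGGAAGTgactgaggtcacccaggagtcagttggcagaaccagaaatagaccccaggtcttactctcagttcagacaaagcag

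The eligible sequence, every sequenced base outside protein-coding genes and over 1 kb up to 20 kb from a protein-coding TSS, came to 279.8 Mb, or 10.6% of the genome. Members lay at 7.12 per Mb, which was 0.956 times the density of all shared intervals over the genome. The density was 5.34 per Mb over 20 kb up to 100 kb from a TSS, 1.60 per Mb beyond 100 kb, 5.32 per Mb in introns and 6.87 per Mb in exons. Promoters, within 1 kb of a TSS, held 132 per Mb. Intervals in this location were thus spaced more closely than in the other intergenic classes and much more widely than at promoters.

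Within the location, 71.3% of the replicate 1 intervals (69.6% to 73.0%) overlapped a replicate 2 interval, and 73.6% of the replicate 2 intervals (71.9% to 75.3%) overlapped one of replicate 1. At promoters the shares were 86.1% in replicate 1 and 91.5% in replicate 2. The 802 replicate 1 intervals of this location with no strict replicate 2 overlap were weaker and narrower than the members, with a median signal value of 6.90 and a median width of 311 bp. Of these, 91.4% overlapped an interval of the less strict replicate 2 list. Where both replicates had an interval, the summits lay close together: the median offset was 11 bp, and 93.7% were within 50 bp.

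The signal value, the number the authors' peak caller gave each peak, ranks peaks within 1 list only. Members had a median of 8.59 in replicate 1 (quartiles 7.31 and 10.3) and 9.71 in replicate 2 (8.23 and 11.5). These lay at the middle of each list, at a median percentile of 50.2 in replicate 1 and 51.2 in replicate 2. Intronic and exonic intervals were much the same, at 50.2 and 51.9 in introns and 50.5 and 49.5 in exons in replicates 1 and 2. Intervals at 20 to 100 kb stood at 54.7 and 56.6, those beyond 100 kb at 59.7 and 62.3, and promoter intervals at 68.9 and 64.2. The log2 signal values of the 1993 members correlated between the replicates with a Pearson r of 0.79, and the values with a Spearman rho of 0.778. This correlation runs across regions of 1 pair of libraries, which share the genome sequence and the peak caller, and it is given as a description.

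**Figure D1:**
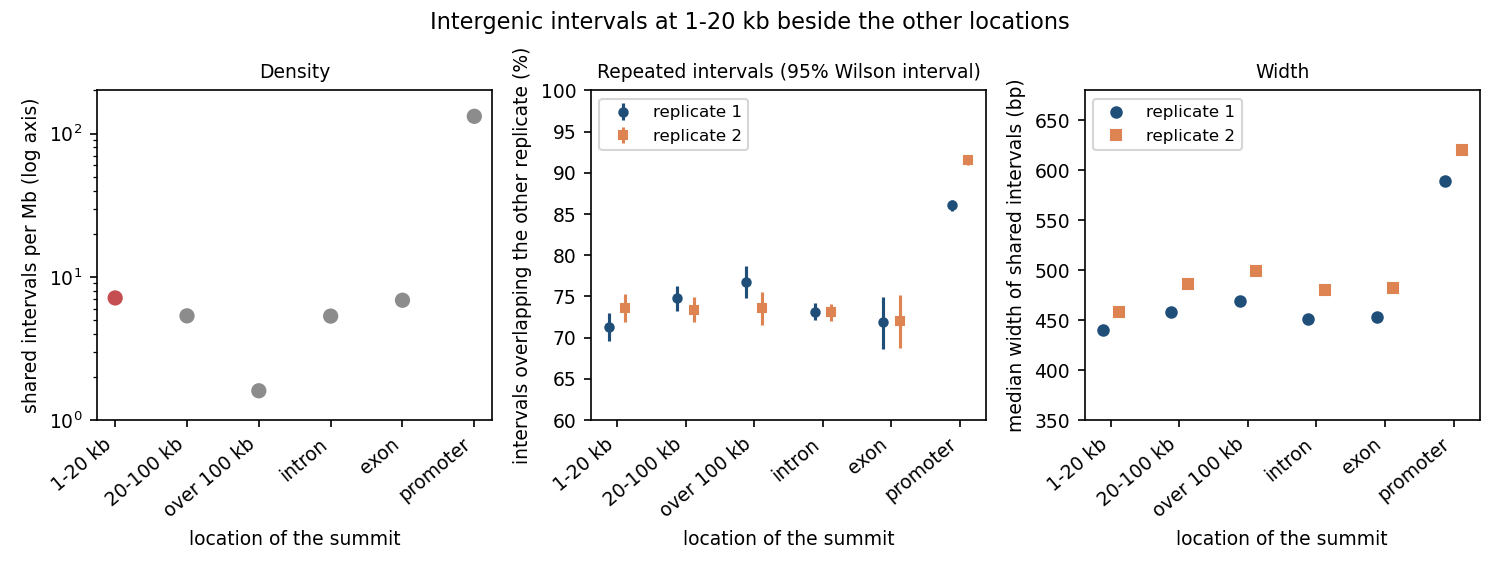
Shared intervals per Mb (left, log axis), the share of each replicate's intervals that overlapped the other replicate (middle, bars are 95% Wilson intervals) and the median width (right) by location of the summit. Members, at 1-20 kb and in red on the left, lay at 7.12 per Mb, between the other intergenic classes and promoters, and had the lowest median width, 440 bp in replicate 1 and 458 bp in replicate 2.

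Members were narrower than promoter intervals. Their median width was 440 bp in replicate 1 and 458 bp in replicate 2, against 589 bp and 620 bp for promoter intervals in the same replicates. The other classes were close to members, with medians from 451 bp in introns to 469 bp beyond 100 kb in replicate 1. In replicate 2 these medians ran from 480 bp to 499 bp. More than 1 summit was listed in 25.1% of members, against 45.4% of promoter intervals. Together the members covered 0.94 Mb, and 3.96% of them (79) reached into a promoter or gene with 1 end while their summit stayed outside. The plot of density, repeat share and width by location shows that the repeat share of members was close to that of intronic and exonic intervals, while their median width was the lowest of the 6 classes in both replicates.

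Member windows were richer in G and C than their surroundings. The median GC content of these windows was 54.5% (quartiles 49.5% and 59.4%), against 43.6% (36.6% and 49.5%) in 2719440 windows tiling the eligible sequence outside every peak of the less strict lists. CpG dinucleotides, which methylation depletes over most of the mouse genome, were absent from 19.1% of member windows and from 50.2% of the tiled windows. A ratio of observed to expected CpG above 0.6 was found in 17.4% of member windows and 5.50% of tiled windows. The median ratio in members was 0.29, well under the 0.784 of promoter intervals. Summits fell on bases that the genome file marks as repeats in lower case in 6.92% of members, while 40.3% of the eligible sequence is so marked.

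The 346 members with a CpG ratio above 0.6 differed from the other 1647 in more than base content. They lay nearer to a TSS, at a median of 7.88 kb against 9.53 kb, and 22% of them (17.9% to 26.6%) had a noncoding or pseudogene TSS within 1 kb, against 7.35% (6.18% to 8.71%). SP letters were present in 8.96% of them against 2.55%, and RUNX letters in 11% against 23.7%. Their signal was much the same, with medians of 8.89 against 8.54 in replicate 1 and 9.85 against 9.69 in replicate 2. The CpG limit was chosen with the data in view.

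A noncoding or pseudogene TSS lay within 1 kb of 197 members (9.88%, 8.65% to 11.3%). For 114 of these the nearest such TSS belonged to a long noncoding RNA, and for 40 to a pseudogene. The share with such a TSS was similar in the other intergenic classes, 11.3% at 20 to 100 kb and 9.72% beyond 100 kb. It was 3.57% in introns, 6.01% in exons and 14.2% at promoters. These 197 members were wider, at a median of 546 bp against 432.5 bp in the other 1796, and 38.6% of them had a CpG ratio above 0.6, against 15.0%. The strongest E-box CACGTG member, near Slfn14, had its summit 28 bp from the start of the noncoding gene AA465934. Usp18, Atf3 and Cdkn1b also had members of this kind, with summits 47 bp from the start of Gm44148, 30 bp from that of D730003I15Rik and 408 bp from that of Lockd.

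Members at the limits of the distance rule did not stand apart from intergenic intervals just beyond them. From 1 to 1.2 kb there were 42 members, with a median signal of 7.62 in replicate 1 and 8.47 in replicate 2, and from 0.8 to 1 kb there were 54 intergenic intervals with medians of 6.99 and 7.77. From 18 to 20 kb there were 167 members with medians of 9.12 and 10.2, and from 20 to 22 kb there were 161 intervals with medians of 9.24 and 10.3. These values are given with no test, since the rule set the limits.

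Signal and spacing changed with distance inside the location. The density was 8.66 members per Mb at 1 to 2 kb, 5.80 at 2 to 5 kb, 7.34 at 5 to 10 kb and 7.32 at 10 to 20 kb, from 155, 309, 594 and 935 members. Median signal values at these distances were 7.60, 7.79, 8.74 and 8.90 in replicate 1 and 8.31, 8.96, 9.82 and 10.1 in replicate 2, so both replicates had their weakest members nearest to genes. The share of members with a CpG ratio above 0.6 was 29.7%, 20.1%, 15.8% and 15.4% in the same order.

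The nearest protein-coding gene was open, meaning that each replicate had an interval within 1 kb of any TSS of the gene, for 922 members (46.3%, 44.1% to 48.5%). Such genes were nearest to 32.7% of the eligible sequence, and they made up 41.3% of the 21853 protein-coding genes. Members lay at 10.1 per Mb near open genes and 5.69 per Mb near the others. Their signal hardly differed between these settings, with medians of 8.63 and 8.56 in replicate 1 and 9.66 and 9.72 in replicate 2. The excess near open genes was absent at 2 to 5 kb. By distance from 1-2, 2-5, 5-10 to 10-20 kb, members lay at 14.0, 5.25, 11.4 and 10.7 per Mb near open genes and at 5.82, 6.07, 5.46 and 5.65 per Mb near genes that were not open.

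The low density at 2 to 5 kb was also seen by distance from the open promoter itself. Measured from the nearest summit of a shared promoter interval, members lay at 4.27 per Mb from 2 to 5 kb (69 members, exact Poisson 95% interval 3.32 to 5.41) and at 12.1 per Mb from 5 to 10 kb (303 members, 10.7 to 13.5). With promoters split into 3 equal parts by their replicate 1 signal, at 8.81 and 11.4, the strongest promoters had 6 members at 2 to 5 kb, or 1.02 per Mb (0.374 to 2.22), and 87 at 5 to 10 kb, or 9.74 per Mb (7.80 to 12). Next to the weakest promoters the densities were 9.87 per Mb (7.27 to 13.1) and 13.5 per Mb (11.1 to 16.3). The step was thus largest beside the strongest promoters and small beside the weakest. Beside the strongest promoters the density was as low from 1 to 2 kb, at 1.02 per Mb (2 members, 0.123 to 3.68). Over all promoters it was 7.98 per Mb there, from 42 members, of which 30 lay beside the weakest promoters at 19.6 per Mb (13.2 to 28).

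Each replicate showed the step on its own. Beside the strongest promoters, the intervals of replicate 1 lay at 2.04 per Mb from 2 to 5 kb and 13.9 per Mb from 5 to 10 kb, and those of replicate 2 at 1.70 and 13.0 per Mb. The 122 members up to 5 kb from a promoter summit had median signal values of 6.88 in replicate 1 and 7.71 in replicate 2, and the 303 members at 5 to 10 kb had 8.91 and 9.74. The limit of 5 kb and the split of promoters were chosen after the step was seen. The sources used here name neither the peak caller nor any local background it compared each site with; their part in the step was not tested, and an interval that was not called is not shown to be closed chromatin.

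**Figure D2:**
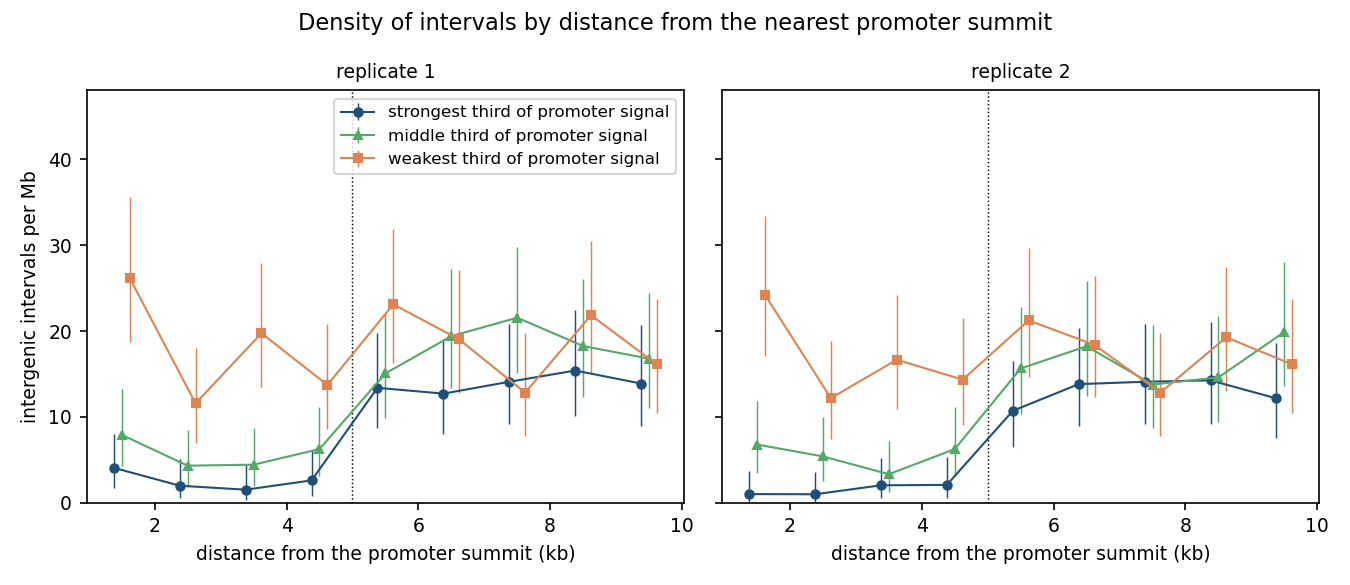
Intergenic intervals of this location per Mb (vertical axis, bars are exact Poisson 95% intervals) by distance from the nearest promoter summit (horizontal axis, kb, bins of 1 kb), for replicate 1 (left) and replicate 2 (right), with promoters split by signal. Beside the strongest promoters, the density over 2 to 5 kb was 2.04 per Mb in replicate 1 and 1.70 per Mb in replicate 2, and it was higher beyond the dotted line at 5 kb in both replicates.

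Position relative to the nearest gene was close to what the sequence offered. Members were upstream of the nearest TSS in 77.4% of cases (75.5% to 79.2%), and 75.9% of the eligible sequence lies upstream. They lay at 7.26 per Mb upstream and 6.69 per Mb downstream. Between genes that point away from each other there were 7.35 members per Mb, between genes that point the same way 6.83, and between genes that point toward each other 7.88. The X chromosome held 2.35 per Mb, below every autosome, which ranged from 5.30 per Mb on chromosome 14 to 10.6 per Mb on chromosome 1 with a median of 7.64. The libraries are male, with 1 X chromosome per cell; the part of copy number in this density was not tested.

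The 10 strongest members by mean percentile over the replicates were all upstream of their nearest gene, and only that of Zfp677 had an open nearest gene. The top member, at chr2:69355473-69355729 and 13.0 kb from Abcb11, the bile salt exporter of liver cells, had signal values of 42.4 in replicate 1 and 42.2 in replicate 2. No other member passed 19.3 in replicate 1 or 22.5 in replicate 2. It was also the only member with any 31-base stretch found in the mitochondrial chromosome, and 43.6% of its stretches were of this kind. The 31 bases at its summit occur once in the nuclear chromosomes, a count that did not search the mitochondrial chromosome. Reads of mitochondrial DNA could be placed at such a stretch, and their part in this signal was not tested.

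The member at chr10:3280788-3281485, near H60c, a ligand of the natural killer receptor NKG2D, had signal values of 19.0 in replicate 1 and 20.5 in replicate 2. That at chr17:21370008-21370682, near the zinc finger gene Zfp677, had 18.1 and 22.5. That at chr1:14924733-14925224, near Trpa1, an irritant-sensing ion channel of sensory neurons, had 17.7 and 20.5. None of these 3 genes is in the gene lists counted here.

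The member at chr1:136466067-136466481 lay 1.69 kb from Kif14, a kinesin of cell division, and had signal values of 19.0 in replicate 1 and 18.6 in replicate 2. Near Cldn9, a tight junction claudin, the values were 18.8 and 18.4, and near Gm13283 they were 16.3 and 22.5, with the summit 129 bp from the start of the antisense gene Gm13274. The other 3 of the 10 were near immune receptor genes of the lectin type. They had 16.7 and 18 near Klri2, a receptor of natural killer cells, 16.8 and 17.6 near Clec4n, which encodes the fungal receptor Dectin-2, and 16.4 and 17.4 near Cd209c.

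The 1993 members had 1790 different nearest genes, or 8.19% of all protein-coding genes. Of these, 1607 genes had 1 member, 165 had 2, 16 had 3 and 2 had 4. The 2 genes with 4 members, Pbp2 and Zfp52, had fewer separate regions than that, because their replicate 1 intervals matched 2 replicate 2 intervals at Pbp2 and 3 at Zfp52. In all, 32 members shared a replicate 2 interval with another member. Of the 16 genes with 3 members, those ranked first by mean percentile included Bex6, Fos, Psen2, Tifab, Ang6, Pmaip1 and Neurl3. Their mean percentiles were not high, from 57.3 at Bex6 down to 37.6 at Neurl3.

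The members of a gene could lie on one side of it or on both. At Psen2, a presenilin of the gamma-secretase, signal values reached from 6.80 to 11.7 in replicate 1 and from 7.60 to 11.1 in replicate 2, with 1 of the 3 members upstream. At Pmaip1, which encodes the death-promoting protein Noxa, all 3 members lay downstream, at 9.42 to 19.8 kb, with values from 5.73 to 12.3 and from 7.68 to 13.7. At Ang6, 2 of 3 members had summit sequences that occur more than once in the genome, so reads could belong to another copy and these are uncertain. Over all members, 63 (3.16%) had such a summit.

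Among 30 transcription factor genes of blood stem cells, 5 (16.7%) were nearest to a member, against 8.19% of all genes. Of the 30, 16 were open, against 41.3% of all genes. Their 7 members were modest in signal, with a median of 6.82 in replicate 1 and 7.63 in replicate 2, at median percentiles of 20.1 and 17.8, and all lay upstream. Fli1, an ETS factor of stem cells and megakaryocytes, had a member 13.7 kb upstream with signal values of 9.20 in replicate 1 and 10.3 in replicate 2, and another 19.8 kb upstream with 7.47 and 7.63. Lmo2, the adaptor that joins Tal1 to GATA factors, had a member 12.9 kb upstream with 6.82 and 7.32. Its other member, 12 kb upstream with RUNX and GATA letters, had 6.26 and 6.85.

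Ikzf1, which encodes the lymphoid zinc finger factor Ikaros, had a member 17.3 kb upstream that differed more between the libraries, at 6.73 in replicate 1 and 9.44 in replicate 2. Ikzf2, its relative Helios, had a member 1.95 kb upstream with 7.31 and 8.17. Egr1, an early response zinc finger factor, had a member 3.44 kb upstream with 6.15 and 6.82. The other 25 listed genes, among them Runx1, Gata2, Tal1, Erg, Spi1, Meis1 and Mecom, were nearest to no member; intervals inside genes or beyond 20 kb are not counted here.

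The AP-1 and early response list, genes switched on within minutes of stimulation, had the most genes with members. Of this list, 13 of 20 genes (65.0%) were nearest to a member, against 8.19% of all genes. In it 11 of 20 were open, against 41.3% of all genes. Its 20 members lay at 47.2 per Mb of the sequence nearest these genes, against 7.12 over all eligible sequence. Their signal was low for members, with a median of 7.77 in replicate 1 and 7.91 in replicate 2, at median percentiles of 36.8 and 22.1. Fos had 3 members, with 11.5 and 10.3 at 18.5 kb upstream, 7.71 and 7.59 at 5.06 kb upstream, and 9.67 and 10.8 at 12.1 kb downstream in replicates 1 and 2.

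Btg2, which slows the cell cycle, had 3 members downstream, with 7.84 and 9.35 in replicates 1 and 2 at 18.1 kb, 9.51 and 10 at 11.8 kb, and 4.74 and 5.26 at 5.73 kb. Atf3, a stress factor of the bZIP family, had 2 members beside the start of D730003I15Rik, with 9.29 and 7.26 and with 9.56 and 10.2. The members near these 3 genes reached from percentile 1.68 to 82.4 in replicate 1 and from 1.33 to 66.2 in replicate 2. The other genes of the list with members were Dusp1, Egr1, Egr3, Fosb, Ier2, Ier3, Junb, Klf4, Klf6 and Nr4a1.

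By share of genes the granulocyte and monocyte list came next, with 10 of 22 genes (45.5%) nearest to a member, against 8.19% of all genes. In this list 4 of 22 were open, against 41.3% of all genes. Its density was 28.1 members per Mb. Its 11 members had a median signal of 9.54 in replicate 1 and 11.03 in replicate 2, at median percentiles of 63.2 and 68.3, and 9 of them were near genes that were not open. Fcgr3, an immunoglobulin receptor, had a member with 10.4 and 14.1 in replicates 1 and 2, and Ltf, the granule protein lactoferrin, had one with 11.3 and 11.1. The 2 members near Lyz2, which encodes lysozyme, and the 1 near Csf2ra had summit sequences with a copy elsewhere in the genome and are uncertain. The 2 Lyz2 windows had the same GC content (60.4%), CpG ratio (0.219) and motif letters. Whether each is the copy of the other was not tested. Cebpb, Cebpe, Csf1r, Itgam, Klf4 and S100a9 had 1 each.

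Of the interferon response list, 7 of 20 genes (35%) were nearest to a member, against 8.19% of all genes. In this list 14 of 20 were open, against 41.3% of all genes. Its 50.6 members per Mb, from 9 members in 0.178 Mb, was the highest density of the 12 lists. The AP-1 list had 47.2 per Mb, and the order of these lists rests on counting both Usp18 members. Ddx58, the RNA sensor RIG-I, had the strongest member of the list, with 13.1 in replicate 1 and 12.1 in replicate 2, and PU.1 and RUNX letters in its window. Usp18, which removes the ubiquitin-like protein ISG15, had 2 members with 6.13 and 9.47 in replicate 1 that shared 1 replicate 2 interval at 9.58. Psmb9, a subunit of the immunoproteasome, had 2 with 7.87 and 8.47 and with 7.61 and 6.81. Of the 9 members, 4 lay within 1 kb of a noncoding or pseudogene TSS.

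Of the surface and signalling list, 6 of 24 genes (25%) were nearest to a member, against 8.19% of all genes. In this list 10 of 24 were open, against 41.3% of all genes. Cd47, the signal that restrains macrophages, had 3 members upstream, with 7.10 and 8.35, 6.26 and 5.81, and 6.44 and 7.61 in replicates 1 and 2. Eng, a co-receptor of the TGF-beta family, had a member with 13.5 and 13.9, although the gene was not open. Of the quiescence and cell cycle list, 5 of 22 genes (22.7%) were nearest to a member, against the same 8.19%. In this list 15 of 22 were open, against 41.3% of all genes. Txnip, an inhibitor of thioredoxin, had 2 members with 10.03 and 9.27 and with 6.67 and 8.37. Ccnd2, a D-type cyclin, had one with 10.3 and 10.4, and Cdkn1b, the cell cycle inhibitor p27, one with 7.66 and 9.64.

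The lists of other lineages and tissues had 1 to 3 genes with members each, and their shares are to be read against the 8.19% of all genes. They were 3 of 18 for megakaryocytes, or 16.7%, the same share as for the stem cell factors (among them Gp9 and Gp1bb, which encode platelet glycoproteins), 2 of 18 (11.1%) for B cells, namely Igll1 and Ebf1, and 2 of 22 (9.09%) for T and natural killer cells, namely Cd2 and Lck. They were 1 of 20 for erythroid cells (Tmcc2), 3 of 24 (12.5%) for liver, brain and muscle, namely Mbp, Apob and Slc17a7, and 1 of 24 (4.17%) for ribosomal proteins. The ribosomal list had 22 of 24 genes open, against 41.3% of all genes. The Mbp members, near the gene of a myelin protein, had 13.3 and 11.2 and 7.93 and 7.75 in replicates 1 and 2, so single strong members were found near genes of other tissues too. Lists differ in how much eligible sequence their genes have, some genes, such as Klf4 and Egr1, stand in 2 lists each, and a nearest gene is not shown to be a target.

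**Figure D3:**
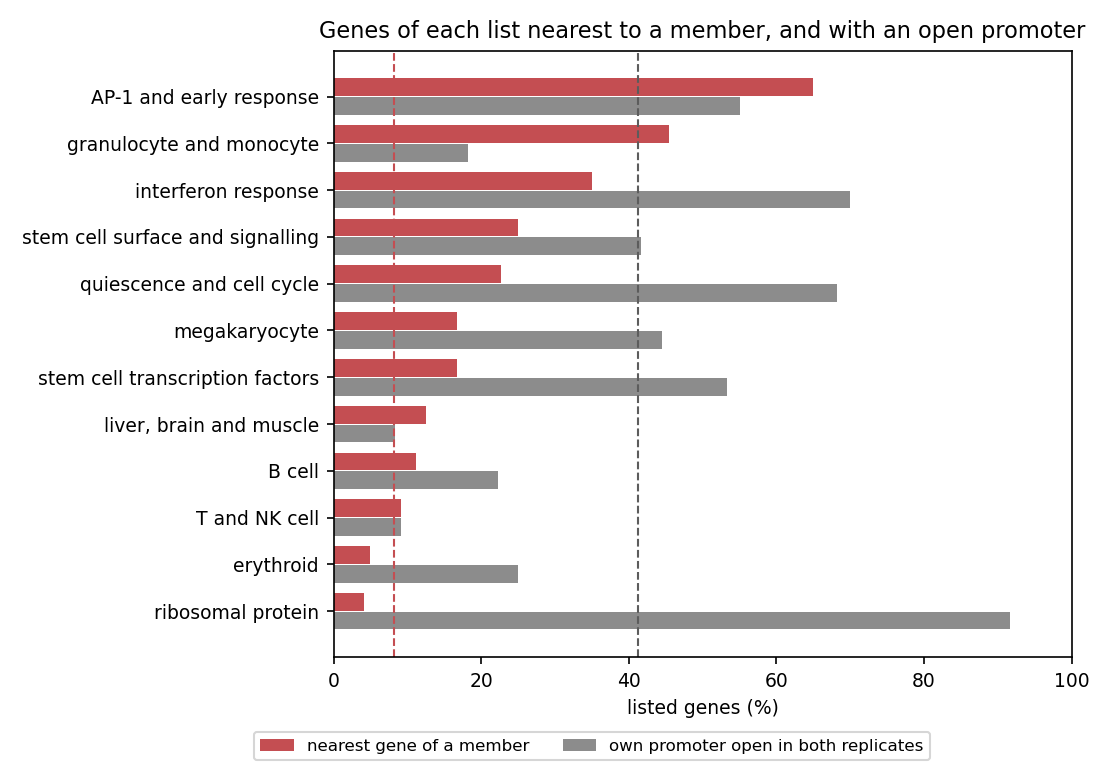
Share of the genes of each list that were nearest to at least 1 member (red) and that had a promoter interval in both replicates (grey), in percent of listed genes; dashed lines give the same shares over all 21853 protein-coding genes, 8.19% and 41.3%. The red bars reach 13 of 20 genes for AP-1 and early response and 1 of 24 for ribosomal proteins, of which 22 of 24 were open.

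The plot of gene lists sets both shares side by side: the order of the lists by members was not their order by open promoters. The scatter of signal values shows where the members of 3 lists fell in both libraries.

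**Figure D4:**
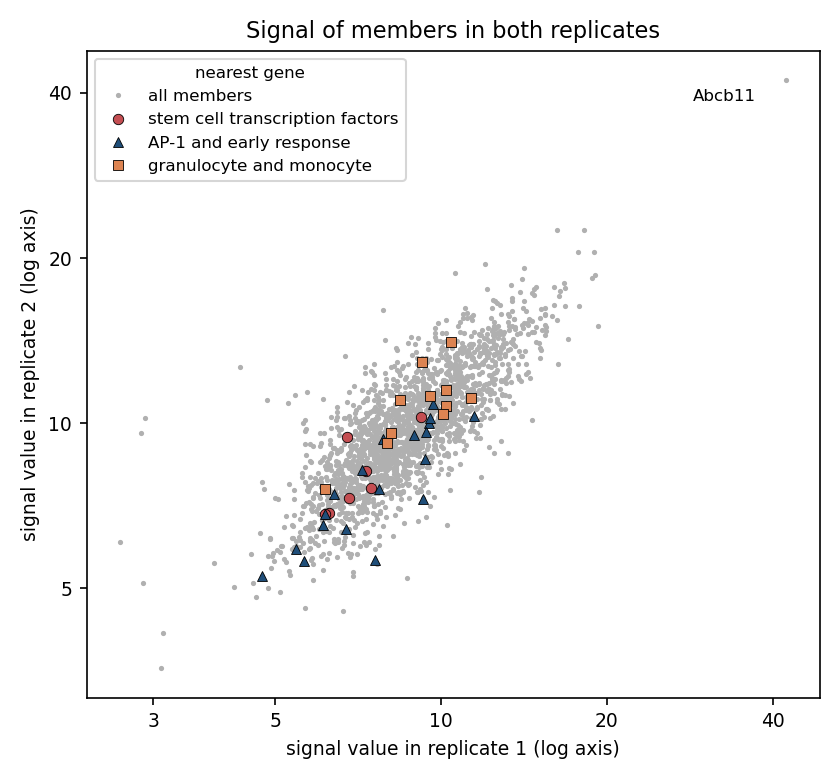
Signal value of each of the 1993 members in replicate 1 (horizontal) and replicate 2 (vertical), both on log axes, with members nearest to genes of 3 lists marked. The median was 9.54 and 11.03 in replicates 1 and 2 for the granulocyte and monocyte list, 7.77 and 7.91 for the AP-1 and early response list, and 6.82 and 7.63 for the stem cell factor list; the Abcb11 member stands alone at 42.4 and 42.2.

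Motifs were counted as exact matches of consensus letters on either strand of the same windows, and each share was set against the share in the tiled eligible windows, standardised to the members' GC content in bins of 5%. Of 37 patterns, 15 were found in at least 50 member windows. The letters were ACCGGAA or ACAGGAA for the ETS core, GAGGAAGT for PU.1, TGTGGT or TGCGGT for RUNX, and TGTGGTTT, TGTGGTTA, TGCGGTTT or TGCGGTTA for the longer RUNX pattern, which the RUNX count also holds. They were TGAGTCA or TGACTCA for AP-1, AGATAA for GATA factors, CAGCTG or CAGATG for the E-box of Tal1 and E proteins, CACGTG for the E-box of Myc and Usf, CAGGTG for the E-box of E2A and Zeb, TGACAG for MEIS and AACTGNC or AACGGNC for MYB. They were CCAATCA or CCAATGA or CCAATCG for NF-Y, GGGCGGGG or GGGGCGGG for SP, and CCACACCC or CCCCACCC for KLF; for CTCF a gapped pattern of the core of its known motif was used. PU.1 and ETS core letters share a stretch of 5 bases but cannot match at the same place.

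The highest ratios belonged to PU.1, CTCF and the longer RUNX pattern. PU.1, an ETS factor of myeloid and lymphoid cells, had its letters in 143 members (7.18%, 6.12% to 8.39%), against 0.739% of standardised background windows, a ratio of 9.71. CTCF, which holds chromatin loops and insulators, had them in 152 members (7.63%, 6.54% to 8.88%) against 0.904%, a ratio of 8.43. The longer RUNX pattern was in 123 members (6.17%, 5.2% to 7.31%) against 0.777%, a ratio of 7.94. With the unstandardised background the ratios were 12, 33.6 and 4.81, and with windows 500 bp to either side of each summit 15.1, 16 and 3.84, so each stayed above 1 while its size depended on the background.

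RUNX letters were the most frequent of the 15, in 428 members (21.5%, 19.7% to 23.3%), against 8.71% of background windows, a ratio of 2.47. The ETS core was in 9.28% of members against 2.97%, and AP-1 letters in 4.21% against 1.58%. NF-Y letters, a CCAAT box common in promoters, were in 4.72% against 2.35%, CACGTG in 3.16% against 1.61%, and SP letters in 3.66% against 1.95%. MEIS letters, for partners of Hox factors, were in 9.23% against 6.78%. All of these shares lay above the background beyond their Wilson intervals. The SP ratio of 1.87 became 10.6 with the unstandardised background and 2.86 with the flanks, and the CACGTG ratio of 1.96 became 3.08 and 2.21.

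GATA letters were in 3.21% of members (2.52% to 4.08%) against 2.70%, so the interval held the background, and the ratio of 1.19 became 0.512 with the unstandardised background and 0.703 with the flanks. A longer GATA pattern, AGATAAGA or AGATAAGG, was in 22 members (1.1%, 0.73% to 1.67%) against 0.579%, and its ratio of 1.91 became 1.26 and 1.33 with those backgrounds. CAGGTG and KLF letters were below the standardised background, with ratios of 0.703 and 0.72, but above it with the unstandardised background, at 1.22 and 2.16, and with the flanks, at 1.06 and 1.43. As a check on the method, 3 sets of scrambled letters were counted in the same way. The scrambled RUNX letters had a ratio of 1.15, the scrambled GATA letters 1.43 and the scrambled ETS letters 1.63, and the first pair lay above the background beyond their intervals. The scrambled ETS letters were in only 11 member windows, and their AGCAGATGC holds CAGATG, which is counted here for the Tal1 E-box. With the standardised background, ratios up to the 1.43 of the scrambled GATA letters were therefore no larger than that of a scrambled set. These include MEIS at 1.36, MYB at 1.31 and the Tal1 E-box at 1.22. With the flanks, scrambled GATA and RUNX letters had 0.663 and 0.963, against 1.35 for MEIS, 1.22 for MYB and 1.51 for the Tal1 E-box. With the unstandardised background these values were 0.536 and 1.09, against 1.499, 1.35 and 1.54 in the same order. The scrambled ETS letters were above all of these, at 2.2 with the flanks and 1.93 with the unstandardised background.

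**Figure D5:**
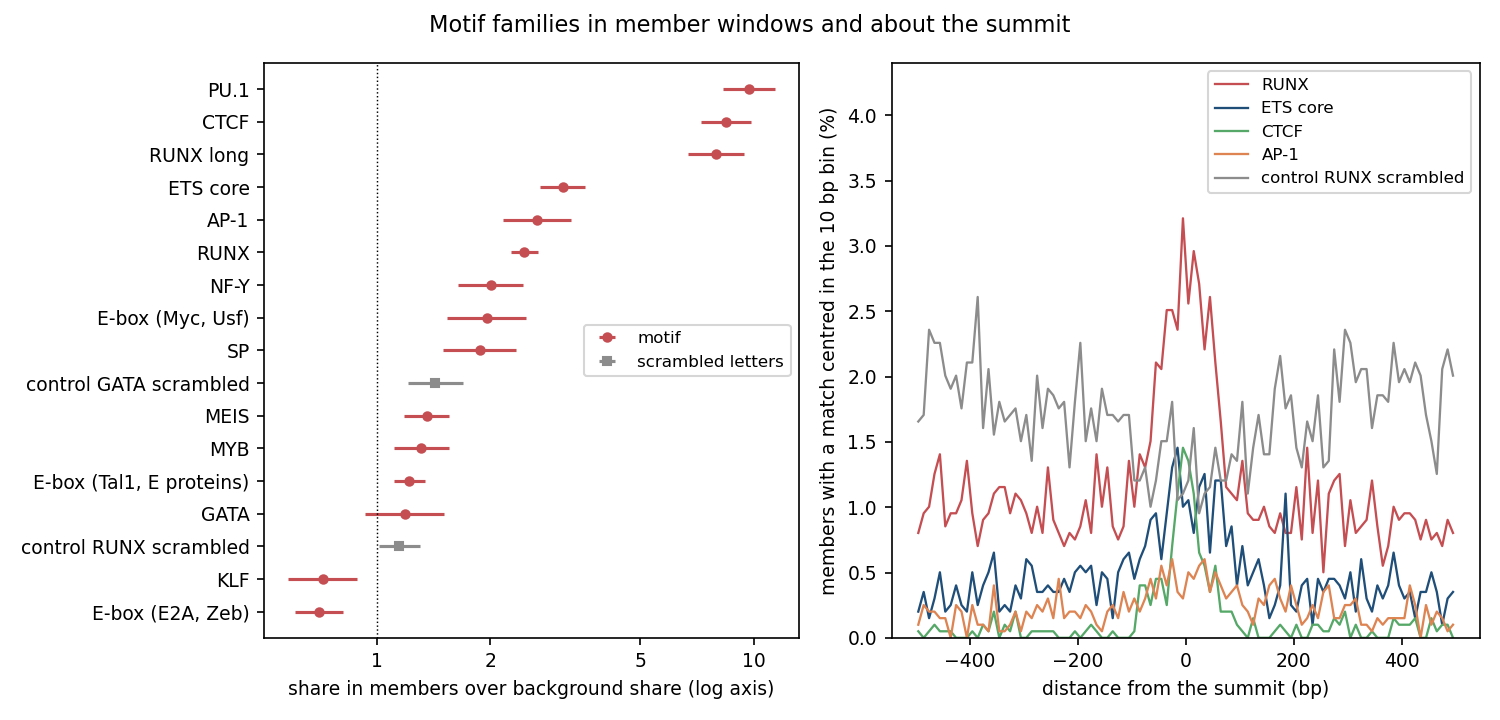
Left, ratio of the share of member windows to the GC-standardised background share (log axis, bars from the 95% Wilson interval of the member share) for letters found in at least 50 member windows, motifs as circles and scrambled letters as squares. Right, percent of members with a match centred in each 10 bp bin (vertical axis) by distance from the summit (horizontal axis, bp); RUNX reached 3.21% next to the summit against 0.803% at the edges, and scrambled RUNX letters 1.1% against 1.66% and 2.01%.

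The plot of matches about the summit shows where the letters lay. RUNX letters were centred in the 10 bp bin just before the summit in 3.21% of members and in the outermost bins, at 495 bp to either side, in 0.803% each. CTCF letters were the most tightly placed of the 15: 66.0% of their 153 matches were within 20 bp of the summit, against 43.9% for RUNX and 44.2% for the ETS core. In the windows printed first, the Abcb11 and Herpud2 motifs lie near the middle, and the Trpa1 and Sfpq motifs at the ends.

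Members with CTCF letters formed a narrow group of their own. Their median width was 301 bp in replicate 1 and 322 bp in replicate 2, against 452 bp in replicate 1 for members without them. ETS core letters were in 3.95% of the CTCF members (1.82% to 8.34%) and RUNX letters in 11.8% (7.62% to 17.9%), below the 9.28% and 21.5% of all members. CTCF with the ETS core occurred in 6 members, 0.425 times the product of the separate shares, while the ETS core with RUNX occurred in 56, which was 1.41 times the product. Their median signal was 8.08 in replicate 1 and 9.43 in replicate 2, and 3.29% of them stood at or above percentile 90 of either list, against 6.62% and 8.03% of all members in replicates 1 and 2.

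The shares of some letters differed between the strongest and weakest members, but within overlapping intervals. RUNX letters were in 25.9% of the 499 strongest members (22.2% to 29.9%) and 20.4% of the 499 weakest (17.1% to 24.2%), AP-1 letters in 5.21% (3.58% to 7.52%) and 2.20% (1.24% to 3.9%), and NF-Y letters in 7.82% (5.77% to 10.5%) and 4.21% (2.77% to 6.35%). CTCF letters went the other way, with 5.21% among the strongest and 8.22% among the weakest. So did the ETS core (8.22% and 10.4%), MEIS (7.62% and 10.8%) and MYB (5.01% and 7.41%). All of these intervals overlapped. CREB letters, TGACGTCA or TGACGCA, were in 33 members with median signal values of 10.1 in replicate 1 and 10.6 in replicate 2.

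Set beside the other locations, member windows were intermediate in most families. RUNX letters were in 21.5% of members (19.7% to 23.3%), 26.3% of intervals at 20 to 100 kb (24.6% to 28.1%), 25.5% of intronic intervals and 8.68% of promoter intervals. The ETS core was in 9.28% of members (8.09% to 10.6%), 13.4% at 20 to 100 kb (12.1% to 14.8%), 14.2% in introns and 6.96% at promoters. SP letters were in 3.66% of members and 22.1% of promoter intervals, and NF-Y letters in 4.72% and 16.1%. CTCF letters were in 7.63% of members, 6.43% at 20 to 100 kb, 4.09% beyond 100 kb, 4.45% in introns, 6.19% in exons and 3.26% at promoters. Members had the highest share, but its Wilson interval overlapped those of the 20 to 100 kb and exon classes. These are counts over regions of the same pair of libraries, with no test between conditions.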

How the data were processed

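Deposited peak lists in mm10 coordinates were used, each derived per the deposited file notes from each library alone. The deposited signal value per peak was assigned by the authors' peak caller and is used within a list only. The sources used here do not give the aligner, the peak caller and its settings, or how mitochondrial reads and read ends were treated. Intervals listed once per summit were counted once, at the strongest summit. Genes came from GENCODE M21, with a TSS at each start of a protein-coding transcript; this definition was chosen after others had been tried. Python 3.11.15 with numpy 2.4.6 and scipy 1.17.1 was used, and interval overlap and motif counting were tested on simulated data. Shares have 95% Wilson intervals and densities exact Poisson intervals, for counting error only; depth and its precision are unknown. No p-value was computed, since 2 libraries of 1 group allow no test between conditions.

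The members, gene lists and motif letters were chosen with earlier results of these data known. Named are the 10 members with the highest mean percentile, all members near stem cell factor genes, the 10 genes with the most members, and up to 3 genes of every other list, those with the most members; the remaining genes of some lists are named to complete their counts, as are Slfn14, Sfpq, Herpud2 and Hic2 for their windows. Some genes these rules name are not reported here. The alternatives tried were other overlaps, lists, replicates, distance limits, windows and backgrounds.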

Additional observations from a re-analysis of the deposited data

How the results depend on the processing

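Over 16 alternatives, 252 recomputed values included 126 that moved by no more than 1 SD between the replicates' own lists (counts by no more than 1.5 times), 122 that moved further and 4 that reversed. This spread was chosen after the values were seen. A move of over 1.5 times was found in 18 of the 252, namely the number of members and 17 motif ratios. Of 165 motif ratios, 159 kept their side of 1 and 6 did not. These 6 were the ratios of CAGGTG, at 1.22 with the unstandardised background and 1.06 with the flanks, KLF, at 2.16 and 1.43, and GATA, which was not beyond its interval, at 0.512 and 0.703; the cause was not tested. With the less strict lists the CTCF ratio was 13.1 and the NF-Y ratio 1.23.

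With the less strict lists, members numbered 6461, their density was 1.21 times the overall one, the median percentile 55, width 323 bp, GC 52.5%, CpG ratio 0.259, share with an open nearest gene 66.3% and share near a noncoding or pseudogene TSS 7.88%. The 50% strongest members had a median percentile of 71.7, a width of 473 bp, a CpG ratio of 0.301 and a noncoding share of 11.3%. Beyond 2 kb the density ratio was 0.942, the CpG ratio 0.28 and the upstream share 75.8%. Without noncoding starts GC was 53.5% and the CpG ratio 0.273, and in windows of 100 bp to either side GC was 52.7%.

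Without replicate 1 or 2, with no overlap asked, the density ratio was 1.04 to 1.05, the percentile 40.5 to 42.4, the width 403 to 427 bp, GC 53.5% in both, the CpG ratio 0.278 to 0.287, the open share 44.8% to 46.2%, the noncoding share 9.35% to 9.98% and the upstream share 75.7% to 77.6%. The density relative to the whole genome thus lay on both sides of 1.

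The repeat share of 71.3% was 68.8% with a reciprocal overlap of 50%, 73.6% when asked of replicate 2 and 97.5% against the less strict replicate 2 list. Alternatives chosen after seeing the data were a TSS at every transcript start, which gave 2126 members and an upstream share of 70.3%, leaving out repeated summits, counting shared replicate 2 intervals once, and recounting the listed genes. Listed genes with a member numbered 55, and from 43 to 67 under the alternatives. No paired analysis was possible because there is only 1 group.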

Other observations

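Of the 22 motif patterns found in under 50 member windows, 12 lay above the GC-standardised background beyond their Wilson intervals and 3 below it. Letters were matched on both strands. The longer ETS pattern, CCGGAAGT or ACAGGAAGT, was in 47 members (2.36%) against 0.301%. Letters of the bZIP dimers of NF-E2 and Maf, GCTGAGTCA or GCTGACTCA, were in 35 members (1.76%) against 0.292% of standardised background windows, and they contain the AP-1 letters. CREB letters, TGACGTCA or TGACGCA, were in 1.66% against 0.389%. NRF1 letters, GCGCATGCG or GCGCANGCG, were in 15 members (0.753%, 0.457% to 1.24%) against 0.163%, and in 5.51% of promoter intervals. Letters of interferon regulatory factors, a gapped pattern, were in 39 members (1.96%) against 0.583%, and those of PU.1 with such a factor in 29 (1.46%) against 0.706%. C/EBP letters (TTGCGCAA, TTGCGAAA, TTGCACAA, TTGCATAA or TTGCGTAA) were in 16 members, HLF letters (TTACGTAA, TTATGTAA or TTGCGTAA, the last shared with C/EBP) in 10, MEF2 letters (CTATTTATA, CTATAAATA or CTAAAAATA) in 7, joint ETS and RUNX letters in 21 and part of an E-box beside GATA letters in 6, with ratios of 2.52, 4.14, 3.51, 2.68 and 2.33; the longer GATA pattern is the other of the 12. With the unstandardised background the HLF ratio was 1.07 and the MEF2 ratio 0.76. YY1 letters, AAGATGGC, were in 11 members (0.552%, 0.308% to 0.986%), below the background of 1.38%, but at the same share as in windows 500 bp to either side. TCF and LEF letters (CTTTGATC, CTTTGATG or CTTTGAAC), in 9 members, and SOX letters (ACAATGG or ACAAAGG), in 45, had ratios of 0.451 and 0.727.

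Few windows held several families. Of the PU.1, ETS core, RUNX, GATA, AP-1 and CTCF families, 1114 members (55.9%) held none, 714 held 1, 153 held 2 and 12 held 3.

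Another shared interval outside promoters lay within 5 kb of 164 members (8.23%), and the median distance to the next one was 34.7 kb. The series-level lists made from both libraries held nearly all members, with 1986 (99.6%) on the thresholded list and 1991 (99.9%) on the conservative one. The shares over all shared intervals were 99.8% and 99.9%. Members had to be on the strict lists of both libraries, so such shares were nearly fixed by the rule.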
